A study of Rattus norvegicus with 24 samples.

Results

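Kinesins, cytoplasmic dynein and dynactin, the proteins that carry cargo along microtubules, were examined in the dentate gyrus of young and aged rats. A gene was taken as a member when its symbol in the array's platform annotation began with Kif followed by a digit or c, with Klc followed by a digit, or with Dync, Dynl or Dctn, and only probe sets annotated with a single symbol were used. The rule found 86 probe sets for 55 genes, of 14217 genes with a single symbol on the array. Each gene was represented by its probe set with the highest mean over the arrays. Of the 55 genes, 36 exceeded a log2 value of 4 on at least 6 of the 21 arrays and are called measured here, as are 8737 of the 14217 genes.

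The study asked how gene expression in the dentate gyrus differs with age and with spatial learning in old age. Each array held RNA of a separate male Long-Evans rat, an outbred strain, extracted from the dissected dentate gyrus, and no rat was treated. The groups were 8 young rats of 6 months, 6 aged unimpaired rats and 7 aged impaired rats, the aged rats being 24 to 26 months old. The Morris water maze, in which a rat learns the place of a hidden platform, gave a learning score that assigned aged rats to the unimpaired group when they scored within the range of the young and to the impaired group when they scored worse. All groups went through the maze, and tissue was taken 2 weeks later, so the young rats are a control for age but not for testing.

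Kinesins form a large family that mostly walks toward the plus ends of microtubules, which in an axon point away from the cell body, so kinesins of the transport classes carry vesicles, mitochondria and synaptic precursors outward (anterograde). Cytoplasmic dynein-1 walks toward the minus ends and returns endosomes, signalling complexes and worn organelles to the cell body (retrograde), and dynactin joins dynein to its cargo and keeps it on the track. Granule cells, the main neurons of the dentate gyrus, send long unmyelinated mossy fibre axons to CA3. Other kinesins build the spindle of dividing cells, and dynein-2 works inside cilia.

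The deposited values are log2 expression values, and the arrays were alike in level, with medians of 3.77 to 3.84 and 48.3% to 48.8% of probe sets above log2 4. Of 12 granule neuron markers on the array 11 were measured, among them Prox1, the transcription factor that defines granule cells, with means of 10.85 (young), 10.79 (unimpaired) and 10.80 (impaired). Other markers of this list were not level. Glra2 differed from young by -2.191 log2 units in unimpaired and -1.607 in impaired rats (limma, adjusted p = 0.000691 and 0.00807). Pdyn differed by 0.3669 and 0.3612 (adjusted p = 0.0381 and 0.0469). Against young rats, 7 of the 11 were higher and 4 lower in unimpaired rats, and 6 higher and 5 lower in impaired rats. The mean level of 14 meningeal markers (collagens, Ogn, Igf2 and others) stood above the median array by 1.42 log2 units in impaired replicate 2, 1.11 in impaired replicate 3, 0.503 in impaired replicate 7 and 0.347 in young replicate 5, while the other arrays lay between -0.115 and 0.108. Some results below, though not all, are given with and without these 4 arrays. In bulk tissue of this kind, fewer cells of a type and less RNA per cell cannot be told apart.

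The measured members came from every class of axonal transport motor on the array. All 3 kinesin-1 heavy chains were measured, as were 3 of 4 kinesin light chains, all 3 kinesin-2 genes, 3 of 5 kinesin-3 genes and the neuronal kinesin-4 gene Kif21a, which gave 13 of 16 anterograde genes. On the retrograde side all 5 subunit genes of cytoplasmic dynein-1, 4 of 5 dynein light chains and all 5 dynactin genes were measured, which gave 14 of 15. Of the rest, 5 of 6 dynein-2 genes, the kinesin-13 gene Kif2a, both kinesin-14 genes and Kif26b were measured. Among genes that carry cargo in axons, those below the filter were Klc3, Kif16b, Kif1b and Dynlrb2. Another 6 probe sets carry several symbols that include a motor gene (Dctn3, Dynll1 and Kif1b) and are left out of the member counts because the signal cannot be assigned to a single gene; all 6 were measured, and none passed the test in any comparison.

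**Figure D1:**
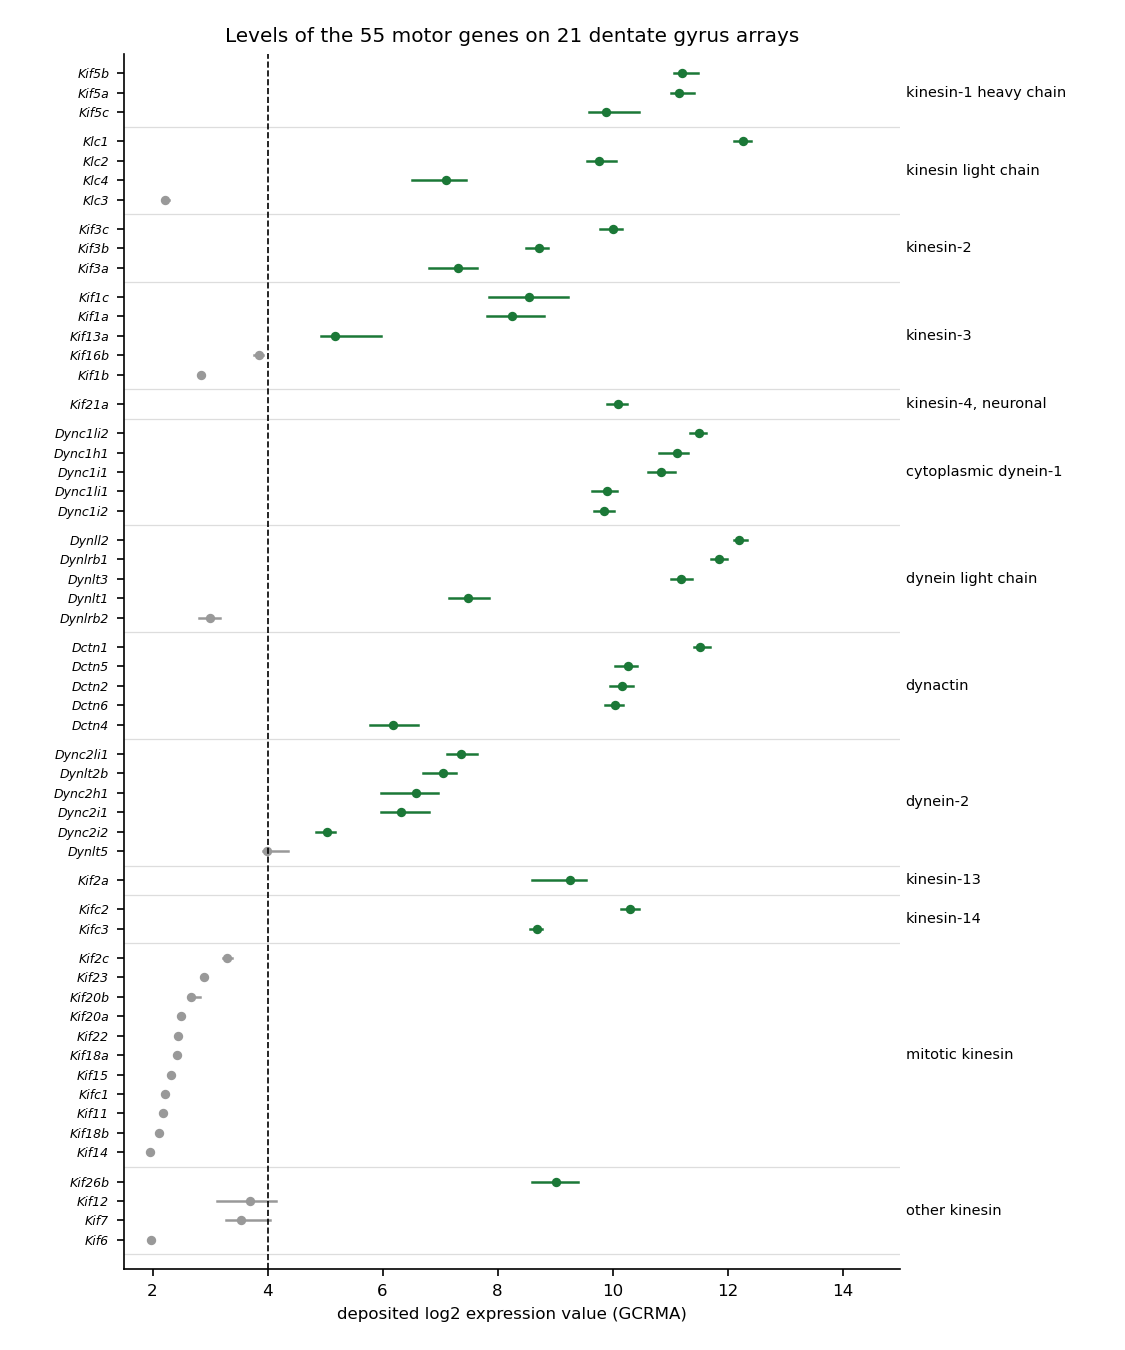
Deposited log2 values of the 55 genes, with the mean over 21 arrays as a point and the lowest to highest array as a line, by role. Green marks the 36 measured genes and grey the 19 others, and the dashed line is log2 4. All 11 mitotic kinesins lie left of it. Values of different genes come from different probes and are not ranked against each other.

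None of the 11 mitotic kinesins, which build and move the spindle or split the dividing cell, was measured. Their values over all arrays lay between 1.94 (Kif14) and 3.38 (Kif2c), and no array exceeded log2 4 for any of them. Of 19 proliferation markers on the array, 1 was measured, Pcna, a replication clamp also used in DNA repair, at 8.98 to 9.39. None of 11 markers of ependymal cells and motile cilia was measured either. Kif6, Kif7 and Kif12, kinesins with roles outside axonal transport, were also below the filter, and Dynlt5 passed log2 4 on 3 arrays.

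Many genes of mitosis carry the cell cycle genes homology region in their promoter, a short element bound by the repressor complex that silences them in resting cells. RefSeq promoter windows of 250 bases before to 50 bases after the gene start (build GRCr8) were found for 45 of the 55 members. The words TTTGAA and TTTAAA, the core of that element, were searched on both strands, TTTGAA reading TTCAAA on the opposite strand and TTTAAA reading the same on both. At least 1 match stood in 8 of 10 mitotic kinesin promoters (80%), in 2 of 28 promoters of measured members (7.14%) and in 1 of 7 promoters of the other members below the filter (14.3%), beside 28.3% of all 33469 promoter windows. In the same order the median share of G and C bases in the windows was 62.7%, 61.8% and 57.7%, beside 51.7% over all windows. The shares with a match were not adjusted for this. The matches of 4 mitotic kinesins and of the 2 measured members are shown to place the word, in capitals, in its surroundings. They are printed in the direction of the gene.
Kif11: tcgtcttcctttTTTAAAttgaggcgccga
Kif22: ggaccccggcaaTTCAAAagagagaagcgg
Kif2c: tggcgcgcgggaTTTAAActgcagcggttt
Kifc1: cgacggttgaaaTTCAAAagtggcgggtgt
Kif26b: tgggagaatttcTTTGAActcagttagcga
Dctn1: gcagctgatcatTTTGAAgtggcccttgat
The windows lie at chr1:244536820-244536849 on the plus strand (Kif11), chr1:191080877-191080906 on the minus strand (Kif22), chr5:135899214-135899243 on the minus strand (Kif2c), chr20:5000895-5000924 on the plus strand (Kifc1), chr13:92815406-92815435 on the plus strand (Kif26b) and chr4:117241489-117241518 on the plus strand (Dctn1). The word begins 35 bases before the start in Kif11, 16 in Kif22, 19 in Kif2c, 22 in Kifc1, 9 in Kif26b and 222 in Dctn1. Mitotic kinesins not shown spread more widely. Their match nearest the start begins 46 bases before it in Kif15, 72 in Kif20a and 79 in Kif23, and 1 base after it in Kif20b. A match describes the letters of the window and does not show that a factor binds there.

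Group differences were fitted with limma across all 15177 probe sets that passed the filter, with p-values adjusted over all of them, and a gene was called at an adjusted p below 0.05. No measured motor gene was called in any of the 4 comparisons. In impaired minus young rats, 0 of 36 members were called, beside 0.618% of the 8737 measured genes; at an unadjusted p below 0.05, 2 members were higher and 4 lower, beside 8.57% and 4.53% of genes. In unimpaired minus young rats, 0 of 36 were called beside 1.29% of genes, and 0 members were higher and 6 lower at an unadjusted p below 0.05, beside 3.14% and 14.9% of genes. In impaired minus unimpaired rats, 0 members and 0% of genes were called, and 9 members were higher and 1 lower at an unadjusted p below 0.05, beside 14.4% and 1.41% of genes. In all aged minus young rats, 0 of 36 were called beside 1.28% of genes, and 1 member was higher and 7 lower at an unadjusted p below 0.05, beside 5.4% and 9.74% of genes. The background moved in the same direction as the members in each of the last 3 comparisons.

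The direction of the small differences followed that background. The median member differed by 0.02 log2 units between impaired and young rats, by -0.05 between unimpaired and young, by 0.06 between impaired and unimpaired and by -0.02 between aged and young, where the median of all genes was 0.01, -0.04, 0.05 and -0.01. Differences were positive for 21, 9, 29 and 14 of the 36 members in that order. After each array was centred on its median, the counts at an unadjusted p below 0.05 became 1 higher and 2 lower in unimpaired minus young rats, beside 9.53% and 6.35% of genes, and 1 higher and 3 lower in impaired minus unimpaired rats, beside 4.73% and 5.93% of genes. Positive differences then numbered 19 and 17 of 36, beside 56.5% and 46.7% of genes. In aged minus young rats centring gave 1 higher and 4 lower, beside 9.51% and 6.39% of genes, and 19 positive, beside 55.5%. For impaired minus young rats it gave 4 higher and 4 lower, beside 8.33% and 5.15% of genes, and 20 positive, beside 53%.

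The intervals of the fit show how precisely a difference was estimated, for 1 gene at a time on its representative probe set. Other probe sets of a gene could be less precise. In unimpaired minus young rats those of Kif5a had intervals of -0.79 to 0.82 and -0.93 to 0.81. The 95% interval of a member's difference had a median half-width of 0.12 log2 units in impaired minus young, 0.13 in unimpaired minus young, 0.13 in impaired minus unimpaired and 0.11 in aged minus young rats. Intervals lay wholly within 0.5 log2 units of 0, a 1.41-fold change, for 34, 34, 35 and 35 of the 36 members in that order. The exceptions were Kif1c in all 4 comparisons, Kif26b in impaired minus young and Kif13a in unimpaired minus young rats.

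**Figure D2:**
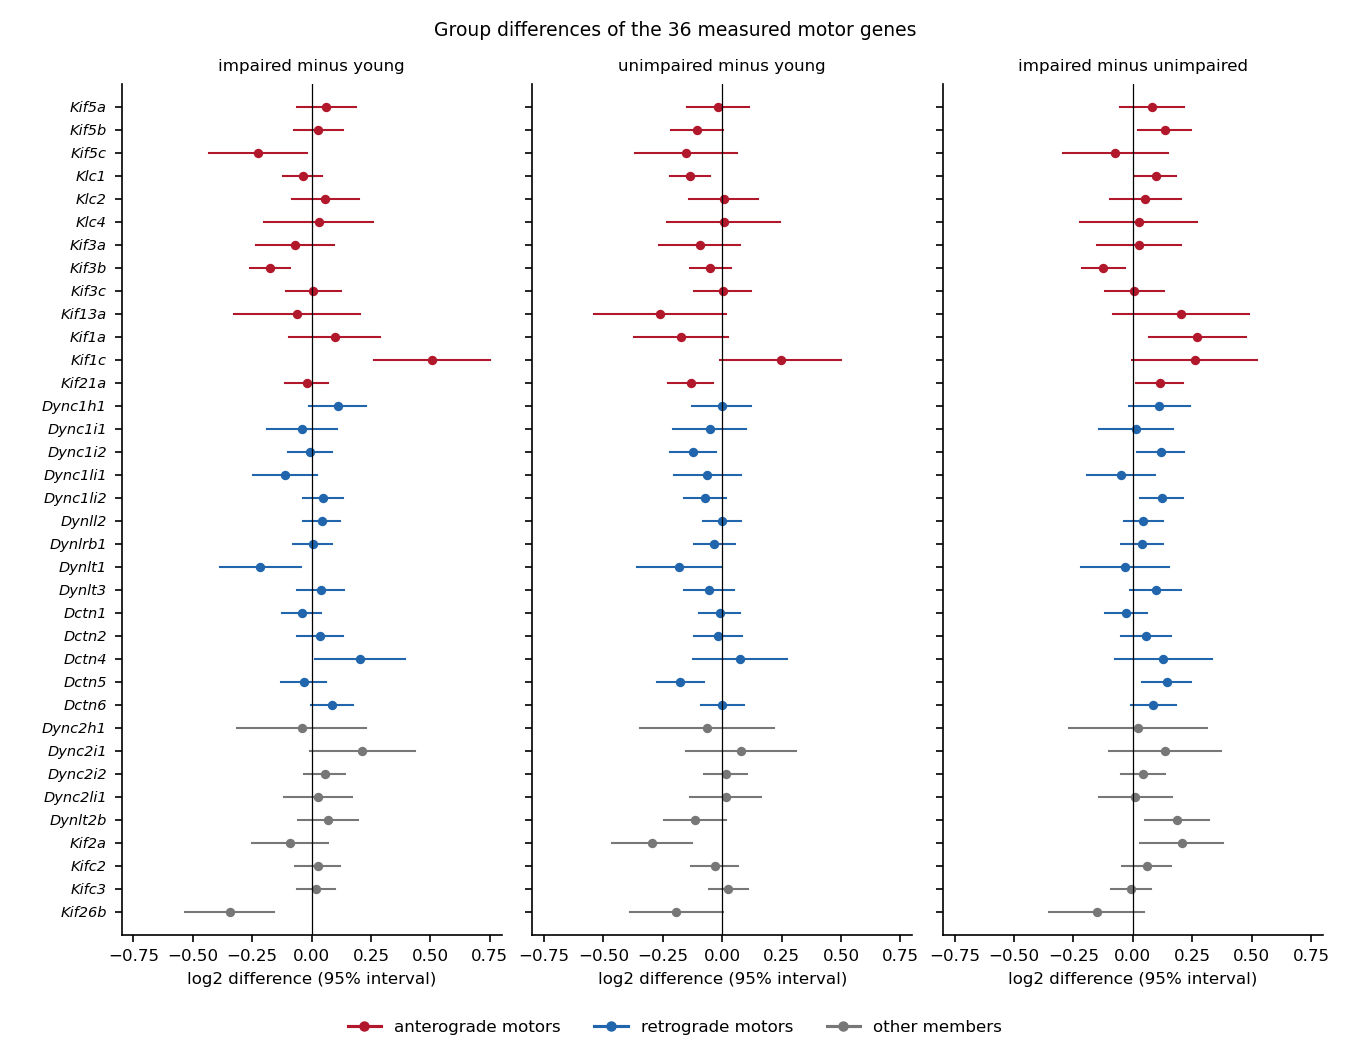
Log2 differences between groups, with 95% intervals from limma, for the 36 measured genes in 3 comparisons, by role from top to bottom. Most intervals cross 0 and nearly all stay within 0.5 log2 units of it; Kif1c has the highest upper bound, 0.751 in impaired minus young rats. The points of unimpaired minus young rats lie mostly left of 0 (27 of 36) and those of impaired minus unimpaired rats mostly right (29 of 36), as do those of all genes.

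Kif1c, a kinesin-3 motor that carries dense-core vesicles and integrins, was the member with the smallest p. In young rats it ran from 7.86 over a median of 8.40 to 8.50, in unimpaired rats from 8.30 over 8.56 to 8.74, and in impaired rats from 8.43 over 8.84 to 9.23. The 5 highest impaired rats lay above every young rat, and the lowest 2 overlapped them. The difference of impaired minus young was 0.51 ± 0.12 log2 units (SE; 1.42-fold, n = 7 and 8), with 7 of 7 impaired rats above the young mean, and it missed the threshold (limma, adjusted p = 0.0559). It passed without young replicate 5 (adjusted p = 0.0483), impaired replicate 4 (0.0378) or impaired replicate 6 (0.0340), and with array weights (0.0360), a trended and robust variance (0.0462) or a filter at log2 6 (0.0457); without the 4 arrays with high meningeal markers, of which impaired replicate 2 held the highest Kif1c value, the difference was 0.38 (adjusted p = 0.355). Unimpaired rats averaged 0.25 ± 0.12 above the young (adjusted p = 0.313) and impaired rats 0.26 ± 0.13 above the unimpaired (adjusted p = 0.349).

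The kinesin-2 motors form a heterotrimer of Kif3a with Kif3b or Kif3c and carry cargo in axons and in the cilium. Kif3b ran from 8.67 over a median of 8.82 to 8.87 in young rats, from 8.64 over 8.74 to 8.82 in unimpaired rats and from 8.49 over 8.62 to 8.70 in impaired rats. All but the 2 highest impaired rats lay below every young rat, and 1 unimpaired rat did. Impaired rats averaged 0.17 ± 0.04 log2 units lower than young (limma, adjusted p = 0.0559, 7 of 7 rats below the young mean) and 0.12 ± 0.04 lower than unimpaired rats (adjusted p = 0.228). The first difference passed without young replicate 1, young replicate 5, impaired replicate 4 or impaired replicate 6 (adjusted p from 0.0220 to 0.0491) and with array weights (0.0358), and was 0.16 lower without the 4 meningeal arrays (adjusted p = 0.217). Kif3a, measured at 6.81 to 7.65, was 0.07 ± 0.08 lower in impaired than in young rats (adjusted p = 0.783), and its second probe set was 0.22 ± 0.08 lower (adjusted p = 0.208). The representative Kif3c probe set was within 0.01 log2 units of young in both aged groups. Its ranges overlapped, at 9.78 to 10.17 in young, 9.88 to 10.17 in unimpaired and 9.89 to 10.08 in impaired rats. The second probe set differed from young by 0.06 ± 0.10 in impaired and -0.07 ± 0.10 in unimpaired rats (limma, adjusted p = 0.852 and 0.785). On it impaired rats were 0.13 ± 0.10 above unimpaired rats (adjusted p = 0.583).

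Kinesin-1 is the most studied axonal motor, with a heavy chain encoded by Kif5a, Kif5b or Kif5c and light chains that hold the cargo. Kif5c, enriched in neurons, ran from 9.82 over a median of 9.96 to 10.26 in young, from 9.60 over 9.78 to 10.45 in unimpaired and from 9.65 over 9.78 to 9.99 in impaired rats. The groups overlapped, and unimpaired replicate 8 held the highest value of all arrays. Impaired rats averaged 0.23 ± 0.10 lower than young (limma, adjusted p = 0.341, 7 of 7 below the young mean) and all aged rats 0.19 ± 0.09 lower (adjusted p = 0.305). Without unimpaired replicate 8 the aged difference was 0.25 lower and passed (adjusted p = 0.0409), while the mean of the gene's probe sets gave 0.09 lower (adjusted p = 0.640). Kif5b, the heavy chain found in most cell types, was 0.03 ± 0.05 higher in impaired and 0.11 ± 0.05 lower in unimpaired than in young rats (adjusted p = 0.874 and 0.304). On its second probe set impaired rats were 0.15 ± 0.10 and unimpaired rats 0.28 ± 0.10 lower than young (limma, adjusted p = 0.605 and 0.177).

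Klc1, the main neuronal light chain, was the single member whose unimpaired and young arrays did not overlap, beside 1.02% of measured genes with all unimpaired arrays below all young ones. It ran from 12.26 over a median of 12.31 to 12.41 in young rats, from 12.11 over 12.19 to 12.24 in unimpaired rats and from 12.15 over 12.31 to 12.39 in impaired rats. The impaired rats spanned both ranges. Unimpaired rats averaged 0.13 ± 0.04 log2 units lower than young (1.10-fold; limma, adjusted p = 0.106) and impaired rats 0.04 ± 0.04 lower (adjusted p = 0.749). After median centring of the arrays the unimpaired difference was 0.08 lower (adjusted p = 0.364). Its other measured probe sets gave -0.07 ± 0.09 and -0.09 ± 0.11 in the same comparison. Klc2, a second light chain, was 0.01 ± 0.07 above young in unimpaired rats (adjusted p = 0.978) and 0.06 ± 0.07 above young in impaired rats (adjusted p = 0.788).

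Kif1a, the kinesin-3 motor of synaptic vesicle precursors, ran from 8.02 over a median of 8.30 to 8.48 in young, from 7.82 over 8.14 to 8.26 in unimpaired and from 8.17 over 8.27 to 8.81 in impaired rats. All 3 ranges overlapped, and impaired replicate 1 held the highest value. Impaired rats averaged 0.27 ± 0.10 above unimpaired rats (limma, adjusted p = 0.233) and 0.20 above them without impaired replicate 1. Its other measured probe sets gave 0.02 ± 0.10 and 0.08 ± 0.12 in that comparison, and the mean of its probe sets 0.12 (adjusted p = 0.472). Kif21a, a kinesin-4 motor that slows microtubule growth, was 0.13 ± 0.05 lower in unimpaired than in young rats (adjusted p = 0.146, 6 of 6 below the young mean; 0.08 lower after median centring, adjusted p = 0.335) and 0.02 ± 0.04 lower in impaired rats (adjusted p = 0.898). The lower values of Kif21a and Klc1 in unimpaired rats came beside lower values of all 10 myelin markers, median -0.32. Of these markers 3 were called (Cldn11, Mal and Ugt8), beside 1.29% of all measured genes. Markers of pyramidal neurons (9 of 10), GABAergic interneurons (6 of 7), astrocytes (6 of 9) and endothelium (6 of 8) were also mostly lower. Granule neuron (7 of 11) and microglia markers (5 of 8) were mostly higher. The part of these lists in the result was not tested.

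Cytoplasmic dynein-1 consists of a heavy chain with the motor (Dync1h1), intermediate chains that bind dynactin (Dync1i1 and Dync1i2), light intermediate chains that bind cargo adaptors (Dync1li1 and Dync1li2) and small light chains. Dync1h1 ran from 10.81 over a median of 11.12 to 11.31 in young, from 10.95 over 11.11 to 11.19 in unimpaired and from 11.12 over 11.19 to 11.27 in impaired rats. The ranges overlapped, with impaired minus young at 0.11 ± 0.06 (limma, adjusted p = 0.454). Dync1li2 was 0.12 ± 0.04 higher in impaired (11.44 to 11.61) than in unimpaired rats (11.35 to 11.53; adjusted p = 0.231), with 0.05 ± 0.04 against young, and 0.06 higher than in unimpaired rats after median centring (adjusted p = 0.569). Dync1i2, the widely expressed intermediate chain, was 0.12 ± 0.05 lower in unimpaired (9.68 to 9.90) than in young rats (9.80 to 10.03; adjusted p = 0.182) and 0.01 ± 0.04 lower in impaired rats (adjusted p = 0.977). After median centring its unimpaired difference was 0.07 lower (adjusted p = 0.419). Dync1i1, the neuronal intermediate chain, and Dync1li1 differed by 0.11 log2 units or less in every comparison, with unadjusted p of 0.0931 or more.

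Among the light chains, Dynlt1, which binds the intermediate chain, ran from 7.48 over a median of 7.58 to 7.77 in young, from 7.15 over 7.35 to 7.85 in unimpaired and from 7.15 over 7.47 to 7.49 in impaired rats. All but 1 of the 13 aged rats lay below the young mean, and the exception, unimpaired replicate 1, lay above every young rat. All aged rats averaged 0.20 ± 0.07 lower (limma, adjusted p = 0.195); without that rat the difference was 0.24 lower and passed (adjusted p = 0.0468). Dynll2 is a light chain that also serves as a hub in other complexes, and Dynlrb1 is a roadblock-class light chain. Their representative probe sets differed by 0.04 log2 units or less in all comparisons, with within-group SDs of 0.10 or less. On the second Dynll2 probe set unimpaired rats were 0.11 ± 0.06 lower than young, with an SD of 0.13 in unimpaired rats. On it impaired rats were 0.10 ± 0.06 above unimpaired rats and 0.01 ± 0.06 below young. This probe set was not called in any comparison. Dynlt3 reached 0.10 ± 0.05 in impaired minus unimpaired rats (adjusted p = 0.407).

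Dynactin is built on a short filament of the actin-related protein Arp1, with a shoulder that holds the projecting arm (Dctn1, also called p150Glued, and Dctn2) and a pointed-end cap (Dctn4, Dctn5 and Dctn6). Dctn5 ran from 10.19 over a median of 10.36 to 10.43 in young, from 10.05 over 10.15 to 10.27 in unimpaired and from 10.23 over 10.28 to 10.43 in impaired rats. All but 1 of the unimpaired rats lay below every rat of the other groups. Unimpaired rats averaged 0.18 ± 0.05 lower than young (1.13-fold; limma, adjusted p = 0.0738, 6 of 6 below the young mean), a difference that passed without young replicate 1 (adjusted p = 0.0452) and was 0.12 lower after median centring (adjusted p = 0.231). Impaired rats averaged 0.14 ± 0.05 above unimpaired rats (adjusted p = 0.224), the smallest adjusted p of any member in that comparison, and 0.07 above them after quantile normalization (adjusted p = 0.607). Dctn1 (11.42 to 11.70 over all arrays) and Dctn2 (9.96 to 10.35) differed by 0.05 log2 units or less in all comparisons. Dctn4 was 0.20 ± 0.09 higher in impaired than in young rats (adjusted p = 0.361), and Dctn6 0.09 ± 0.04 higher (adjusted p = 0.413).

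Of the members outside axonal transport, Kif2a, a kinesin-13 that does not walk but takes tubulin off microtubule ends, ran from 9.25 over a median of 9.35 to 9.53 in young, from 8.61 over 9.12 to 9.26 in unimpaired and from 9.14 over 9.27 to 9.46 in impaired rats. Unimpaired rats lay low, with 2 of them reaching just into the young range and replicate 8 well below the others. They averaged 0.30 ± 0.08 lower than young (1.23-fold; limma, adjusted p = 0.0728, 6 of 6 below the young mean), and 0.20 lower without replicate 8 (adjusted p = 0.106). The other measured probe sets of Kif2a were 0.18 ± 0.06 and 0.18 ± 0.08 lower in the same comparison, and impaired rats were 0.09 ± 0.08 lower than young (adjusted p = 0.690).

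Kif26b, a kinesin with an atypical motor domain, ran from 8.82 over a median of 9.27 to 9.40 in young, from 8.81 over 8.99 to 9.12 in unimpaired and from 8.60 over 8.82 to 9.02 in impaired rats. The 2 lowest young rats lay within both aged ranges, and the others lay above all impaired rats. Impaired rats averaged 0.34 ± 0.09 lower than young (1.27-fold; limma, adjusted p = 0.0853), and all 13 aged rats lay below the young mean, by 0.27 ± 0.08 on average (adjusted p = 0.0997). The impaired difference passed without young replicate 5 (adjusted p = 0.0220), and the aged difference passed without young replicate 5 (0.0312), young replicate 2 (0.0494) or the 4 meningeal arrays (0.0469). The other measured probe sets of the gene differed: in impaired minus young rats one gave -0.14 ± 0.10 and the other 0.06 ± 0.04, of opposite sign, and in aged minus young rats they gave -0.09 ± 0.08 and 0.03 ± 0.03. With the mean of its probe sets the differences were 0.14 and 0.11 lower (adjusted p = 0.214 and 0.245).

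The dynein-2 genes, which return cargo from the tip of the cilium, had differences from young between -0.04 and 0.21 in impaired and between -0.12 and 0.08 in unimpaired rats. Dynlt2b, a light chain of this motor, was 0.19 ± 0.07 higher in impaired (7.05 to 7.28) than in unimpaired rats (6.71 to 7.26; limma, adjusted p = 0.227), with young rats between 6.95 and 7.17. Dync2li1 differed by 0.03 log2 units or less in all comparisons. Kifc2 and Kifc3, minus-end directed kinesin-14 motors, differed by 0.06 or less.

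**Figure D3:**
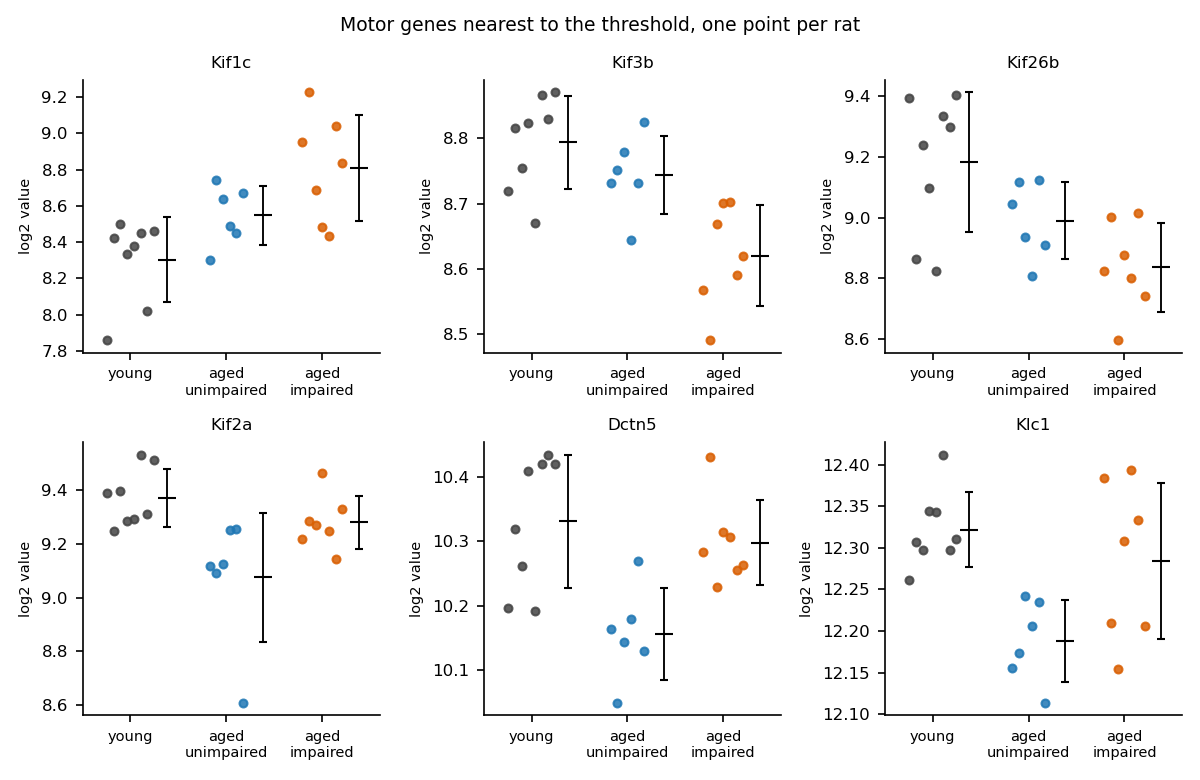
Log2 values of 6 motor genes with small p-values, with a point for each rat and the group mean ± SD at the right of each group; each panel has its own axis, which does not start at 0. Impaired rats reach 9.23 for Kif1c and 8.49 for Kif3b, and all 6 unimpaired rats lie below all 8 young rats for Klc1.

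Anterograde and retrograde motors were then compared as groups, by averaging the log2 values of the 13 and of the 14 measured genes on each array and subtracting the young mean. The anterograde average ran from -0.09 over a median of -0.01 to 0.17 in young, from -0.13 over -0.07 to just under 0 in unimpaired and from -0.06 over 0.01 to 0.12 in impaired rats. The retrograde average ran from -0.07 over -0.01 to 0.08 in young, from -0.18 over -0.02 to 0.003 in unimpaired and from -0.05 over 0.02 to 0.06 in impaired rats. Both sides overlapped between all groups. The group means were -0.07 ± 0.05 and -0.05 ± 0.07 (SD, n = 6) in unimpaired rats and 0.02 ± 0.06 and 0.01 ± 0.04 (SD, n = 7) in impaired rats, for anterograde and retrograde motors in that order.

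The difference of anterograde minus retrograde averaged -0.02 ± 0.10 (SD) in unimpaired and 0.01 ± 0.03 in impaired rats, relative to 0 ± 0.07 in young rats. These shifts were smaller than the spread between rats, and the range of the young, -0.09 to 0.08, held all impaired rats and 3 of 6 unimpaired rats. The unimpaired rats outside it were replicates 1 and 7, just below, and replicate 8 at 0.15, whose retrograde average of -0.18 was the lowest of all arrays. Counted by genes, 9 of 13 anterograde and 13 of 14 retrograde differences were negative in unimpaired minus young rats, where 32.8% of all genes were positive, and 11 of 13 and 11 of 14 were positive in impaired minus unimpaired rats, beside 74.7% of all genes. No p-value is given for these averages, since the genes of each side were chosen as a list.

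**Figure D4:**
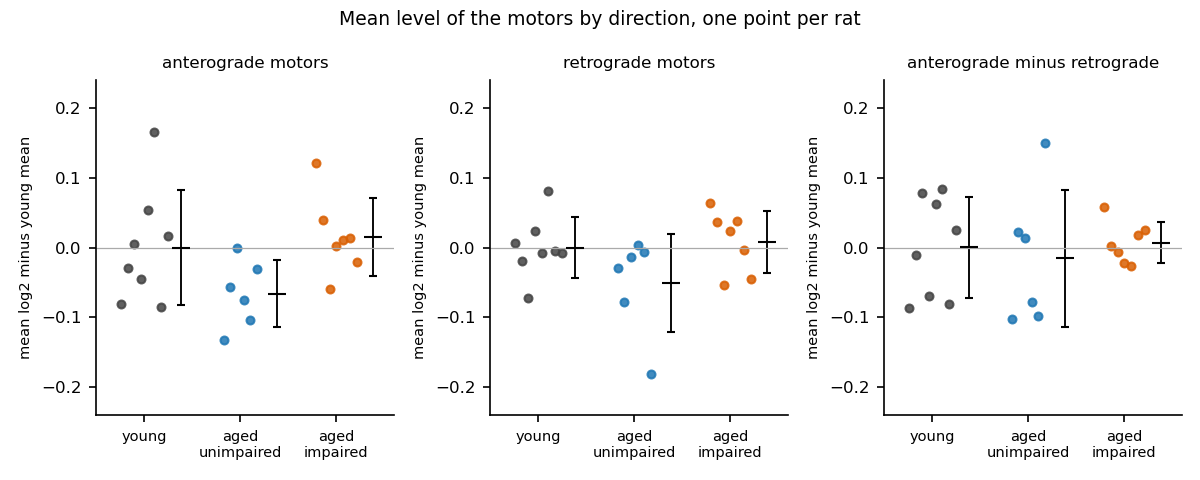
Mean log2 value of 13 anterograde genes, of 14 retrograde genes and their difference, each minus the young mean, with a point for each rat and the group mean ± SD beside it. The groups overlap in every panel, and unimpaired replicate 8 stands at -0.181 for retrograde motors and 0.15 for the difference.

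Kif5a, the kinesin-1 heavy chain mutated in a hereditary spastic paraplegia, differed little between groups but strongly between single rats on its other probe sets, called 2 and 3 here. The representative probe set ran from 11.08 over a median of 11.12 to 11.27 in young, from 11.02 over 11.08 to 11.41 in unimpaired and from 11.07 over 11.22 to 11.35 in impaired rats, with differences from young of -0.02 ± 0.06 and 0.06 ± 0.06 (limma, adjusted p = 0.918 and 0.728). On probe set 2, 7 rats lay between 7.18 and 8.04 and 14 between 8.90 and 9.40, and on probe set 3 the same 7 lay between 4.59 and 5.21 and the other 14 between 5.92 and 7.19. The 7 low rats were young replicates 3, 5 and 6, unimpaired replicates 4 and 8, and impaired replicates 2 and 7, so that every group held both kinds. On the representative probe set these 7 rats read 11.08, 11.27, 11.27, 11.41, 11.14, 11.33 and 11.31 in that order, within the range of the others or just above it, and they held 5 of the 6 highest values there. The SD within groups was 0.764 and 0.825 on probe sets 2 and 3, at the 99.4 and 99.6 percentile of all probe sets tested, where the measured members had a median SD of 0.112. Young replicate 5 and impaired replicates 2 and 7 are also among the 4 arrays with high meningeal markers, and impaired replicate 3 is not among the low rats; the cause of the separation was not tested.

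**Figure D5:**
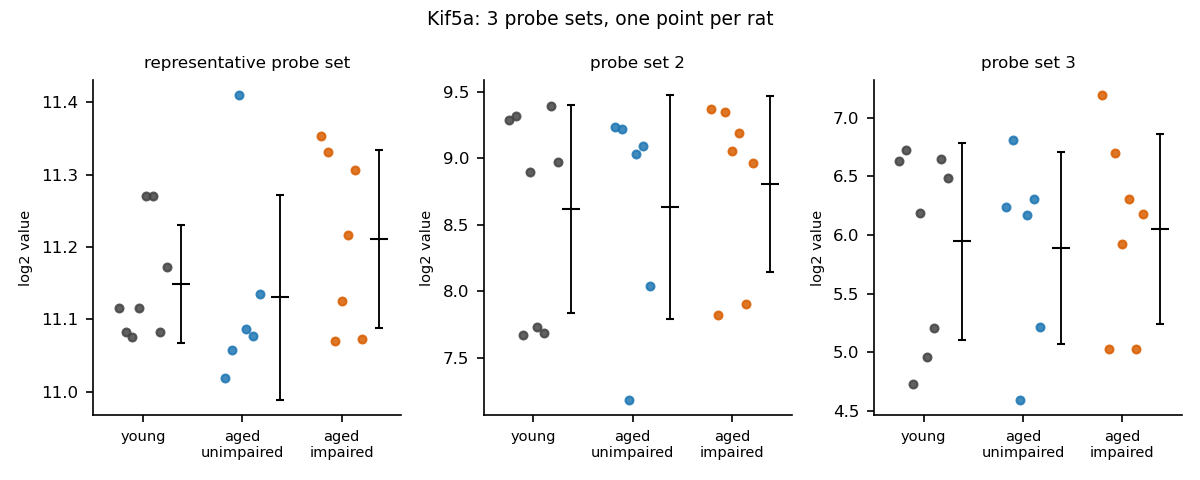
Log2 values of the 3 Kif5a probe sets, with a point for each rat and the group mean ± SD beside it; each panel has its own axis. On probe sets 2 and 3 a gap of 0.859 and 0.71 log2 units separates 7 rats, found in all groups, from 14 others.

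Other probe sets of the members gave a further view. For 10 of the measured genes there were 15 more measured probe sets; 8, 12, 12 and 10 of them had the sign of the representative in the comparisons of impaired with young, unimpaired with young, impaired with unimpaired and aged with young rats. None of the 15 was called in a comparison, and at an unadjusted p below 0.05 there were 1, 4, 1 and 4. No gene had probe sets with opposite signs that were both below an unadjusted p of 0.05.

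The genes that motors work with were taken from lists. Adaptors and regulators, which tie motors to cargo or switch them on, had 32 of 40 genes measured, with medians of 0.03 in impaired minus young, -0.05 in unimpaired minus young, 0.07 in impaired minus unimpaired and -0.01 in aged minus young rats. Of these, 1 gene was called: Rhot1 (Miro1), which anchors kinesin and dynein adaptors to mitochondria, fell by 0.24 ± 0.05 in unimpaired rats (9.14 to 9.45, against 9.44 to 9.61 in young; limma, adjusted p = 0.0204, 6 of 6 below the young mean) and by 0.19 ± 0.04 in aged rats (adjusted p = 0.0276). These calls were lost after median centring (adjusted p = 0.0780 and 0.0541), the first also without unimpaired replicate 8 (0.0525), and the second without young replicate 3, 6 or 9 (up to 0.0679). Without the 4 meningeal arrays the differences were 0.25 and 0.18 lower and both calls were lost (adjusted p = 0.0523 and 0.125). In the main fit 1.29% of all measured genes were called in unimpaired minus young and 1.28% in aged minus young rats. The partner of Kif3a and Kif3b, Kifap3, differed by 0.04 log2 units or less from young in both aged groups. All 6 genes of the dynactin Arp1 filament and its capping proteins were measured, with none called in any comparison and medians from -0.08 to 0.04.

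Some genes of the microtubule track were called. Over all measured genes, 0.618% were called in impaired minus young, 1.29% in unimpaired minus young and 1.28% in aged minus young rats. Of 11 tubulin genes 10 were measured, and Tubb2b, a beta-tubulin of growing neurons, fell in both aged groups: it ran from 11.13 over a median of 11.40 to 11.55 in young, from 10.78 over 10.87 to 10.93 in unimpaired and from 10.64 over 10.82 to 11.03 in impaired rats. No aged rat overlapped a young one. All unimpaired arrays lay below all young ones in 1.02% of measured genes, and this share was not computed for impaired rats. The decrease was 0.51 ± 0.07 log2 units in each (1.42-fold; limma, adjusted p = 0.00137 in unimpaired and 0.000690 in impaired rats) and kept its call with every array left out in turn. Tubb3, the neuronal beta-tubulin, fell by 0.19 ± 0.05 in unimpaired rats (adjusted p = 0.0466), a call that was lost after median centring (adjusted p = 0.175), without the 4 meningeal arrays (0.0974), without the filter on low values (0.0660) and with only the groups compared (0.0929), and held in 3 of 21 fits with an array left out. Of 29 microtubule associated proteins 28 were measured and 1 was called, Mapre1 (EB1), which tracks growing microtubule ends; it fell by 0.26 ± 0.06 in unimpaired rats (adjusted p = 0.0450, and 0.121 after median centring) and by 0.23 ± 0.05 in aged rats (adjusted p = 0.0352, and 0.0534 after median centring), and these calls held in 4 and 13 of the 21 fits with an array left out. Without the 4 meningeal arrays the unimpaired difference of Mapre1 was 0.27 lower and lost its call (adjusted p = 0.0590), as it did without the filter (0.0805) and with only the groups compared (0.0723), while the aged difference was 0.27 lower and passed (0.0427).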

How the data were processed

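The values deposited by the authors are log2 expression values; GCRMA is the tool named in the submitters' processing notes (version not given in the sources used here). The columns of 3 of the 24 labelled arrays, 1 in each group, are empty after the submitters' quality control, so 21 arrays were analysed. From 31099 probe sets, 57 controls were removed. The 3 groups were fitted together in limma 3.58.1 (R 4.3.3; 18 residual degrees of freedom) on the 15177 probe sets above log2 4 on at least 6 arrays, with Benjamini-Hochberg adjustment over all of them; SE and 95% intervals come from this fit, and ± after a difference is an SE. The number of arrays limits the precision. All 55 members matched a RefSeq gene by identifier. The labels give no batch. The script was tested on simulated data. Members named are the 5 with the smallest p in each comparison and the 2 with the highest mean in each role; others named were chosen after their values were seen. The members, roles and lists were chosen with earlier results of these data known. Gene lists covered adaptors and regulators, the Arp1 filament, tubulins and microtubule associated proteins. Marker lists covered proliferation, motile cilia, granule neurons, pyramidal neurons, interneurons, astrocytes, myelin, microglia, endothelium and meninges.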

Additional observations from a re-analysis of the deposited data

Results flagged for a closer look

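In 75 sets of values (the members named by rule and the anterograde minus retrograde average, in each group), 5 held a rat that stood apart from its group by Dixon's criterion, which chance meets in about 1 in 20 groups. Kif5c read 10.45 in unimpaired replicate 8, where the other unimpaired rats lay between 9.60 and 9.83. Kif2a read 8.61 in the same rat, with the others between 9.09 and 9.26. Kif5a read 11.41 in unimpaired replicate 4, with the others between 11.02 and 11.14. Kif1a read 8.81 in impaired replicate 1, with the others between 8.17 and 8.42. Dctn5 read 10.43 in impaired replicate 2, which also has the highest meningeal markers, with the others between 10.23 and 10.32.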

How the results depend on the processing

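The count of members called in impaired minus young rats, 0 as reported, became 1 with a filter at log2 6, 2 with array weights and 1 with a trended and robust variance, where 57 of 7340, 74 of 8737 and 66 of 8737 genes were called. In aged minus young rats it became 1 without the 4 arrays with high meningeal markers, where 60 of 8737 genes were called. With each array left out in turn the count ran from 0 to 3 in impaired minus young rats. It was 3 without young replicate 5, where 109 of 8737 genes were called. In unimpaired minus young rats it ran from 0 to 1, with 1 without young replicate 1, where 137 of 8737 genes were called. In aged minus young rats it also ran from 0 to 1, and 93 to 151 of 8737 genes were called where it was 1. The count stayed at 0 in impaired minus unimpaired rats. Median centring and quantile normalization turned the sign of the members' median difference in unimpaired minus young rats (0.0036 and 0.0073), in impaired minus unimpaired rats (-0.0045 and -0.0065) and in aged minus young rats (0.0059 and 0.0053), and changed the sign for 10, 12 and 5 of the 36 members there, none of them with an unadjusted p below 0.05; without a filter the first of these medians was -0.0054. The anterograde minus retrograde difference moved by less than the spread between rats under every alternative run, with ranges over the arrays left out of -0.0054 to 0.019 for impaired minus young, -0.049 to 0.0019 for unimpaired minus young, 0.0050 to 0.056 for impaired minus unimpaired and -0.021 to 0.0078 for aged minus young rats. Replicate numbers are shared between groups. The 17 pairs of equal number had a median r of -0.0112 (-0.118 to 0.2, 4 over 0.1), beside -0.0036 for 129 pairs of unequal number. Of 19 arrays with a partner, 7 correlated best with their own number. The labels give no pairing, and whether equal numbers share a source was not tested. With the replicate block 0 members were called in each comparison, and the aged minus young median was 0.0062. With the block 74 genes rather than 54 were called in impaired minus young and 55 rather than 112 in aged minus young rats. In unimpaired minus young rats 6 genes rather than 113 were called. There the calls of Tubb2b (limma, adjusted p = 0.0502), Rhot1 (0.130), Tubb3 (0.11) and Mapre1 (0.135) were lost. Those of Rhot1 (0.129) and Mapre1 (0.10) were also lost in aged minus young rats. A fit of only the groups compared was not run for aged minus young, which uses all groups.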
